A study of Mus musculus with 4 samples.

Results

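Sqstm1 encodes p62, a receptor that binds ubiquitin-tagged cargo and hands it to the autophagy machinery, and it was described together with 8 other genes of the same pathway in mouse embryos injected with siRNA against Uqcc3. The genes were selected by name: Sqstm1, Nbr1 and Optn (cargo receptors), Map1lc3a, Gabarap and Gabarapl2 (ubiquitin-like proteins of the ATG8 family), and Atg5, Becn1 and Ulk1 (formation of the autophagosome). Sqstm1 itself was chosen on its measured values, since it was near 0 in the controls and higher in both siRNA libraries, so its values are a description and carry no test. Of 10 selected genes 9 were measured, among 47445 gene identifiers in all, and Map1lc3b was not analysed here.

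Autophagy encloses cytoplasm in a double membrane, the autophagosome, and delivers it to the lysosome. A kinase complex around ULK1 starts the process, a lipid kinase complex with Beclin 1 marks the membrane, and the ATG5 conjugation system attaches ATG8 proteins to it. Receptors such as p62, NBR1 and optineurin hold ubiquitinated cargo on one side and ATG8 proteins on the other. In mice, autophagy is induced soon after fertilization, and embryos from oocytes that lack Atg5 arrest in preimplantation development when fertilized by sperm that also lack it.

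RNA was profiled in 4 libraries of C57BL/6N embryos at the late 2-cell stage, 2 control and 2 siRNA, from a series that followed depletion of Uqcc3, an assembly factor of respiratory complex III. Embryos of 8-week-old females were injected at 8 hpi (the labels' term) with siRNA at 5 µM, either a negative control or one against Uqcc3, and knockdown leaves residual transcript. For the controls, however, the treatment label says "none", so the sources differ on their injection. The sources used here give neither the embryos per library nor whether libraries came from separate mice, so p-values measure only a spread between libraries that may be technical. Sample titles end differently in the 2 groups, and were this a batch, it and the siRNA cannot be told apart.

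Values are FPKM, in which fragments are scaled by library size and transcript length. Levels of different genes can be compared only roughly, since in siRNA replicate 2 differences from controls still moved with transcript length (given below). The depth inferred from genes with 1 transcript was 16200000 and 18200000 fragments in the controls and 11200000 and 11600000 with siRNA. Summing fragments inferred from the authors' bounds over all genes gave less, 6500000 and 6900000 against 3900000 and 4200000, so depth is known only roughly. Uqcc3 stood at 147.5 and 211 FPKM in controls and at 23.7 and 19.8 FPKM with siRNA. The library called siRNA replicate 2 stood apart from the others. Across genes, its highest correlation with any other library was 0.651, against 0.872 or 0.875 for each of the other 3. It held 112 genes under 1 FPKM among 2475 that reached 20 FPKM in all other libraries, where each of those had 0 to 2. Genes at 1 FPKM or more numbered 9769 in it and 11816 to 12200 in the others, and Rn18s-rs5, a ribosomal RNA gene, had 14506 FPKM against 183 to 1022.5 FPKM. The part of these in the results was not tested. Oocyte and 2-cell transcripts were present in every library (summed 4307 to 14130 and 281 to 1315 FPKM, lowest in siRNA replicate 2). Of 37 markers of cumulus cells, sperm, blood and blastocyst lineages, 16 to 23 were listed at 0 in a library, and the summed level of a list was at most 36.0 FPKM. Values are therefore given by library, and counts also for siRNA replicate 1 alone.

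Promoter sequence from RefSeq (build GRCm38.p6) is shown for one gene that was higher and one that was lower in both siRNA libraries. Windows of at least 200 bases upstream of the start sites of RefSeq and GENCODE M21 could be taken for 6 of the 9 genes, and both shown read toward the gene. Capitals mark GC boxes, found on both strands as GGGCGG, which 32.7% of 32851 promoter windows hold.
Sqstm1 promoter, chr11:50210828-50211070, minus strand: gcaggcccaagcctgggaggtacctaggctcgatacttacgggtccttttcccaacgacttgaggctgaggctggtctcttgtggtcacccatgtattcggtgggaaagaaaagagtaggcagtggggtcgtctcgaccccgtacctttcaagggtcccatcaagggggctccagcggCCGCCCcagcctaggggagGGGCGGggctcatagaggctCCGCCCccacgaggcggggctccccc
Gabarapl2 promoter, chr8:111940453-111940702, plus strand: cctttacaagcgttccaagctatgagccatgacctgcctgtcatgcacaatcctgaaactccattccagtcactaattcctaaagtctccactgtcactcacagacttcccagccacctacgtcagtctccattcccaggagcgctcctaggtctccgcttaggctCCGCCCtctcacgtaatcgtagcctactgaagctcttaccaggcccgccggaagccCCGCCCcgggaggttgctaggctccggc
Sqstm1 held 3 GC boxes in 243 bases and Gabarapl2 2 in 250 bases. The E-box CACGTG (in 6.02% of windows), which TFEB-family factors can bind, was found in neither, nor was the antioxidant response element core TGACNNNGC (10.2%), bound by NRF2, or the cyclic AMP response element TGACGTCA (1.55%). Among the 6 windows only that of Atg5 held an E-box, 1 copy. These matches are letters in a short window, not binding sites.

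Sqstm1 was close to the detection limit in the controls and measurable in both siRNA libraries. It lies on chromosome 11 from 50199366 to 50210827 (minus strand, mm10), and GENCODE M21 gives it 7 transcripts, the longest with 8 exons and 2673 bases. Its level was 0.295 FPKM in control replicate 1, 0 in control replicate 2, 4.68 FPKM in siRNA replicate 1 and 11.4 FPKM in siRNA replicate 2. The groups did not overlap, as its selection required. The authors' upper bounds in controls were 0.75 and 0.35 FPKM. Lower bounds with siRNA, mirrored here from the authors' upper bounds, were 3.16 and 9.15 FPKM. The difference of means was 2.88 on the log2(FPKM + 1) scale (SE 0.91), which understates changes of low genes. It was 2.32 for siRNA replicate 1 alone and 3.44 for siRNA replicate 2 alone. On a scale with 0.1 in place of 1 it was 5.22, so its size is set by the pseudocount.

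Among the 12390 genes tested, 5.4% and 0.0% lay below Sqstm1 in the controls, and 45.1% and 62.8% in siRNA replicates 1 and 2. Sqstm1 thus lay near the bottom of the range in controls and near its middle with siRNA, and it passed the filter on low values only through the siRNA libraries. Its 3' end overlaps Mrnip, a gene on the opposite strand, over 750 bases, of which 580 are exonic in both. The amplification kit is not stated to keep strand, so fragments there could be assigned to either gene. Mrnip stood at 14.9, 14.8, 13.4 and 12.8 FPKM in the 4 libraries in the same order, nearly level while Sqstm1 differed.

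The other cargo receptors did not share this pattern. Nbr1 encodes a relative of p62 that binds ubiquitin and ATG8 proteins in the same way (chromosome 11, 101552149 to 101581951, plus strand). It stood at 15.7 and 13.0 FPKM in controls and at 5.87 and 63.2 FPKM with siRNA. One siRNA library lay below both controls and the other above, so the groups overlapped (log2 difference 0.46, SE 1.11, limma adjusted p = 0.934 over all genes). Against the control mean, siRNA replicate 1 differed by -1.15 and replicate 2 by 2.07. Optn encodes optineurin, a receptor in the removal of mitochondria and bacteria (chromosome 2, 5020642 to 5064051, minus strand). Control levels were 0.517 and 0 FPKM, and levels with siRNA 1.496 and 0 FPKM. Optn failed the filter and was not tested, and 1 library of each group lists it at 0.

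Within a library, the make-up of the receptor pool can be read without scaling between libraries. Sqstm1 made up 0.145% and 0% of the summed FPKM of Sqstm1, Nbr1, Optn, Tax1bp1 and Calcoco2 in the controls, and 6.56% and 9.16% with siRNA. Tax1bp1, a receptor that recruits the initiation machinery, held 66.8% and 45.1% in controls and 63.1% and 24.7% with siRNA. Nbr1 held 7.75% and 13.5% in controls against 8.23% in siRNA replicate 1, and 50.9% in replicate 2. In siRNA replicate 1 the Sqstm1 and Optn shares thus lay above both controls and the share of Calcoco2 below. For Sqstm1 this follows from its selection. Optn stood at only 1.496 FPKM in that library and at 0 in siRNA replicate 2. In siRNA replicate 2 Nbr1 had the largest share, in a library where longer genes lay higher against controls (given below). The part of length in these shares was not tested.

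**Figure D1:**
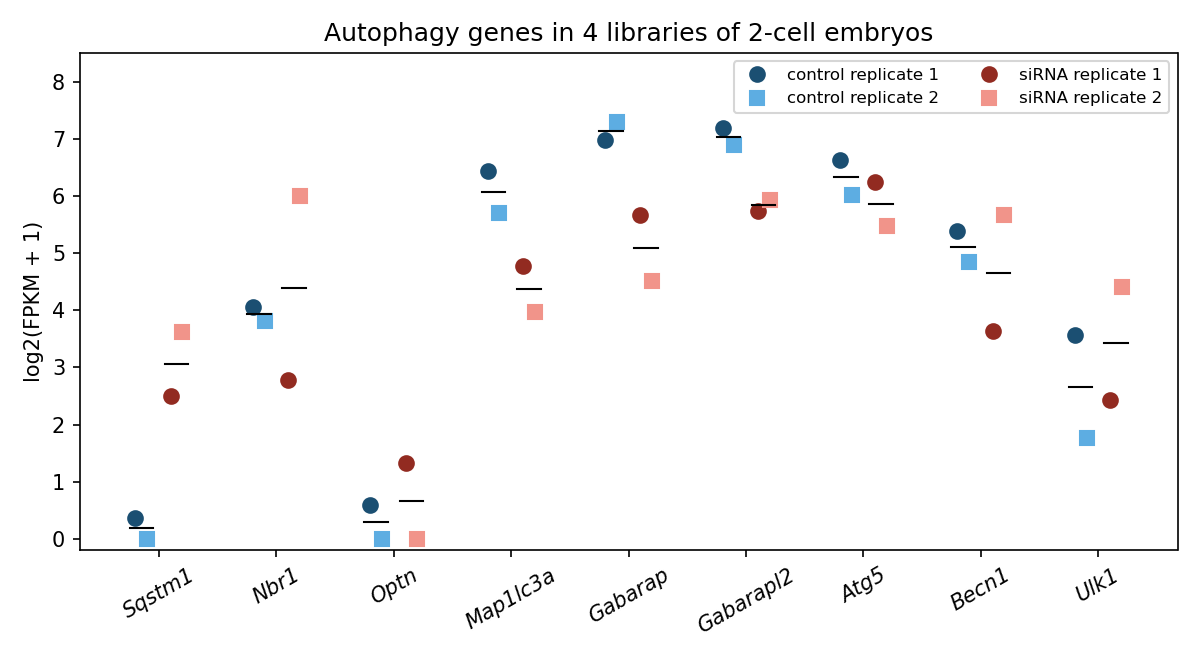
Level of each of the 9 autophagy genes as log2(FPKM + 1) in the 2 control and 2 siRNA libraries (points) with the group means (bars). Sqstm1 sits near 0 in controls and at 4.68 and 11.4 FPKM with siRNA, the 3 ATG8 genes lie lower in both siRNA libraries, and Nbr1, Becn1 and Ulk1 differ widely between the 2 siRNA libraries.

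Gabarap, Map1lc3a and Gabarapl2 each lay below both control values in both siRNA libraries. Their products are coupled to lipid on the growing membrane and bind the receptors. Gabarap (chromosome 11, 69991143 to 69994951, plus strand) stood at 125 and 157 FPKM in controls and at 49.6 and 21.9 FPKM with siRNA. Its siRNA mean was 25.4% of the control mean (log2 difference -2.05, SE 0.68), and it did not pass in limma (unadjusted p = 0.0173, adjusted p = 0.745). Map1lc3a, which encodes LC3A, a member of the LC3 branch of the family (chromosome 2, 155276297 to 155278073, plus strand), stood at 85.7 and 51.2 FPKM in controls and at 26.4 and 14.6 FPKM with siRNA. Its siRNA mean was 29.9% of the control mean (log2 difference -1.71, SE 0.72, unadjusted p = 0.0452 and adjusted p = 0.745 in limma). Both genes lay lowest in siRNA replicate 2.

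Gabarapl2, also known as GATE-16 (chromosome 8, 111940703 to 111953612, plus strand), stood at 145.5 and 117 FPKM in controls and at 52.4 and 60.2 FPKM with siRNA. Its control mean was 131 ± 20.1 FPKM (SD, n = 2) and its siRNA mean 56.3 ± 5.49 FPKM (SD, n = 2), the smallest spread with siRNA in proportion to the mean of the 9 genes. The log2 difference was -1.20 (SE 0.61) and did not pass in limma (unadjusted p = 0.0832, adjusted p = 0.745). Gabarapl2 has 5 measured processed pseudogenes that match its transcripts at 90.8% to 99.4% identity over 200 bases or more, so its own value is uncertain. Summed with them it stood at 435 and 404 FPKM in controls and at 198 and 153 FPKM with siRNA, which leaves the groups apart. Gabarapl1, the remaining GABARAP-branch gene, was at most 0.24 FPKM in any library and was not tested.

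Together the 3 ATG8 genes and Gabarapl1 summed to 357 and 325 FPKM in controls and to 128 and 96.9 FPKM with siRNA. Within the sum Gabarapl2 held 40.8% and 36.0% in controls, against 40.8% and 62.1% with siRNA. Gabarap held 35.1% and 48.2% in controls and 38.7% and 22.6% with siRNA. In siRNA replicate 1 the share of each of the 3 genes lay between its 2 control values or at one of them. In siRNA replicate 2 Gabarap held less and Gabarapl2 more than in the other 3 libraries.

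**Figure D2:**
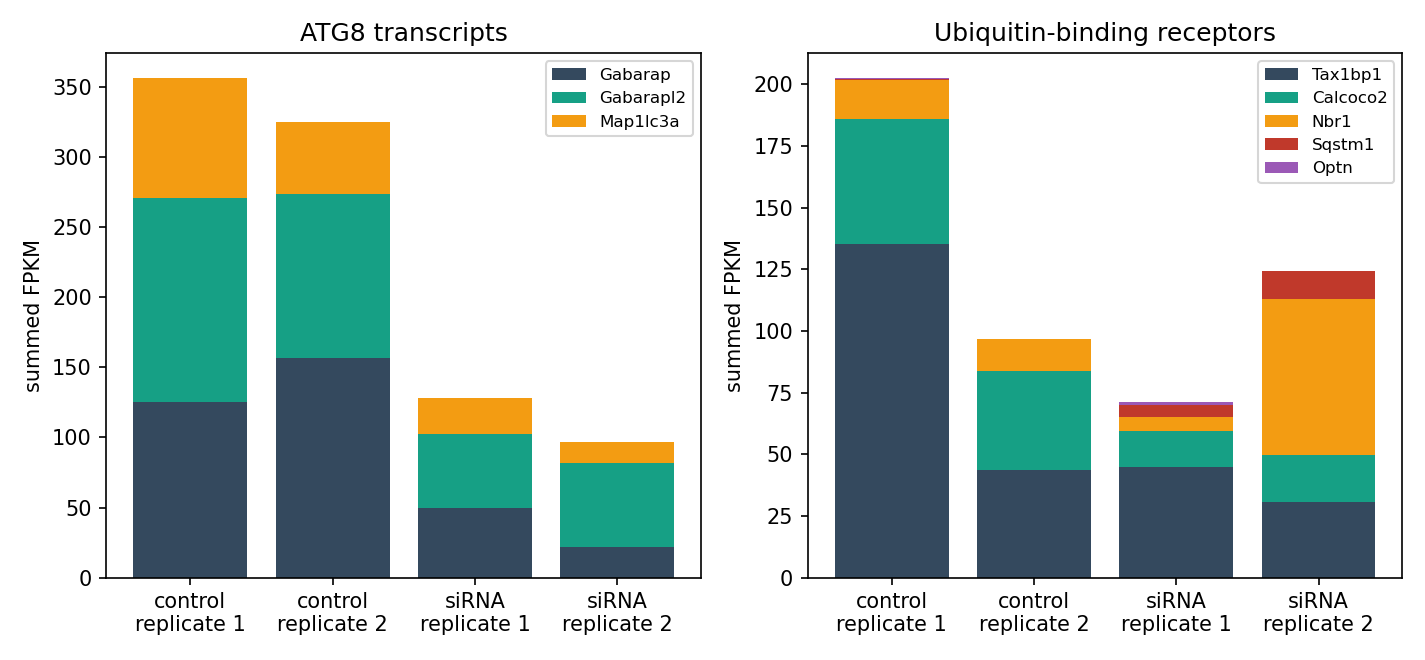
Summed FPKM by library of the measured ATG8 genes (left) and of 5 ubiquitin-binding receptors (right), each bar split by gene. Gabarapl1, at most 0.24 FPKM, and the pseudogene copies of Gabarapl2 are not drawn. The ATG8 sum is 357 and 325 FPKM in controls against 128 and 96.9 FPKM with siRNA. The Sqstm1 segment is visible only with siRNA, which follows from its selection.

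Genes that build the autophagosome showed no common direction. Atg5, the acceptor of ATG12 in the conjugation system (chromosome 10, 44268358 to 44364291, plus strand), stood at 98.3 and 64.1 FPKM in controls and at 74.9 and 43.7 FPKM with siRNA. The groups overlapped (log2 difference -0.47, SE 0.66, limma adjusted p = 0.875). Becn1, which encodes the scaffold of the lipid kinase complex (chromosome 11, 101285952 to 101302286, minus strand), stood at 40.9 and 27.7 FPKM in controls and at 11.5 and 49.7 FPKM with siRNA. Its siRNA values lay on either side of both controls (log2 difference -0.46, SE 0.87, limma adjusted p = 0.911). Against the control mean, siRNA replicate 1 lay at -1.47 and replicate 2 at 0.55. Becn1 shares 3104 exonic bases with Cntd1 on the opposite strand, which was at most 1.17 FPKM in any library.

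Ulk1, which encodes the initiating kinase (chromosome 5, 110784488 to 110810097, minus strand), was uneven within both groups. It stood at 10.8 and 2.40 FPKM in controls and at 4.38 and 20.3 FPKM with siRNA. The log2 difference was 0.76 (SE 1.13, limma adjusted p = 0.882), and it was -0.14 without control replicate 2 and -0.24 without siRNA replicate 2. The direction for Ulk1 therefore rests on single libraries.

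The order of the 9 levels was similar in the controls and differed most in siRNA replicate 2. In controls, Gabarapl2 and Gabarap led (means 131 ± 20.1 and 141 ± 22.2 FPKM, SD, n = 2) and did not differ beyond their spread. The Gabarapl2 value leaves out its pseudogene copies. Atg5 (81.2 ± 24.2 FPKM) and Map1lc3a (68.5 ± 24.4 FPKM) came next and also lay within their spread, followed by Becn1 (34.3 ± 9.33 FPKM), Nbr1 (14.4 ± 1.90 FPKM) and Ulk1 (6.59 ± 5.93 FPKM). Sqstm1 and Optn came last, both under 1 FPKM in both controls. Atg5 stood first in siRNA replicate 1 at 74.9 FPKM and Sqstm1 seventh at 4.68 FPKM, just above Ulk1 at 4.38 FPKM. In siRNA replicate 2 Nbr1 and Gabarapl2 led at 63.2 and 60.2 FPKM, and Map1lc3a at 14.6 FPKM stood just above Sqstm1 at 11.4 FPKM. Differences from controls moved with transcript length in that library (given below), and the part of length in this order was not tested.

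Of the 7 genes tested besides Sqstm1, 0 passed an adjusted p of 0.05 in limma, as did 0% of all genes tested (738 of them, and 2 of the 7, had an unadjusted p under 0.05). For 3 of the 7, the ATG8 genes, the siRNA values both lay under both control values, as for 30.0% of all tested genes. For 0 of the 7 both lay above, against 8.60% of all. The median log2 difference of the 7 was -0.47, beside -0.39 for all tested genes. The downward shift of all genes depends on scaling. After median-of-ratios scaling the all-gene median was -0.11, and 19.9% of genes lay below and 16.1% above. The same 3 ATG8 genes then still lay below both controls, with log2 differences of -1.71 for Gabarap, -1.37 for Map1lc3a and -0.86 for Gabarapl2. The 7 genes were chosen with results of these libraries known, so these counts are no independent evidence.

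The siRNA libraries taken singly gave different pictures of the pathway. In siRNA replicate 1, 5 of the 7 genes lay below both controls (Gabarap, Gabarapl2, Map1lc3a, Nbr1 and Becn1) and 0 above, beside 48.3% and 20.6% of all genes. In siRNA replicate 2, 4 lay below (the ATG8 genes and Atg5) and 3 above (Nbr1, Becn1 and Ulk1), beside 50.5% and 32.0% of all genes. Gabarap passed the test only when siRNA replicate 2 was compared with the controls by itself (log2 difference -2.62, limma adjusted p = 0.0289). In that fit 1477 of 12390 genes passed, and its spread comes from the 2 controls, since the lone siRNA library is assumed to vary as they do.

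Transcript length moved with these differences in siRNA replicate 2. There the median log2 difference from the control mean was -1.48 for genes whose longest transcript has up to 1000 bases, -1.03 for 1000 to 2000, -0.50 for 2000 to 3000, -0.01 for 3000 to 5000 and 0.34 for longer genes. In siRNA replicate 1 the same medians ran only from -0.37 to -0.22. The ATG8 genes are the shortest of the 9 (1112, 1351 and 1677 bases for Map1lc3a, Gabarap and Gabarapl2), and Becn1, Nbr1 and Ulk1 are the longest (4365, 4789 and 5213 bases). In siRNA replicate 2, Gabarapl2 at -1.10 was close to the median of its length class, while Map1lc3a and Gabarap lay below it at -2.11 and -2.62. Where length classes hardly differed, in siRNA replicate 1, the 3 ATG8 genes lay at -1.30, -1.48 and -1.30, each below the class median of -0.37. Sqstm1 lay above the median of its class in both (2.32 against -0.36, and 3.44 against -0.50), which its selection fixed in advance. The part of length in these results was not tested.

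**Figure D3:**
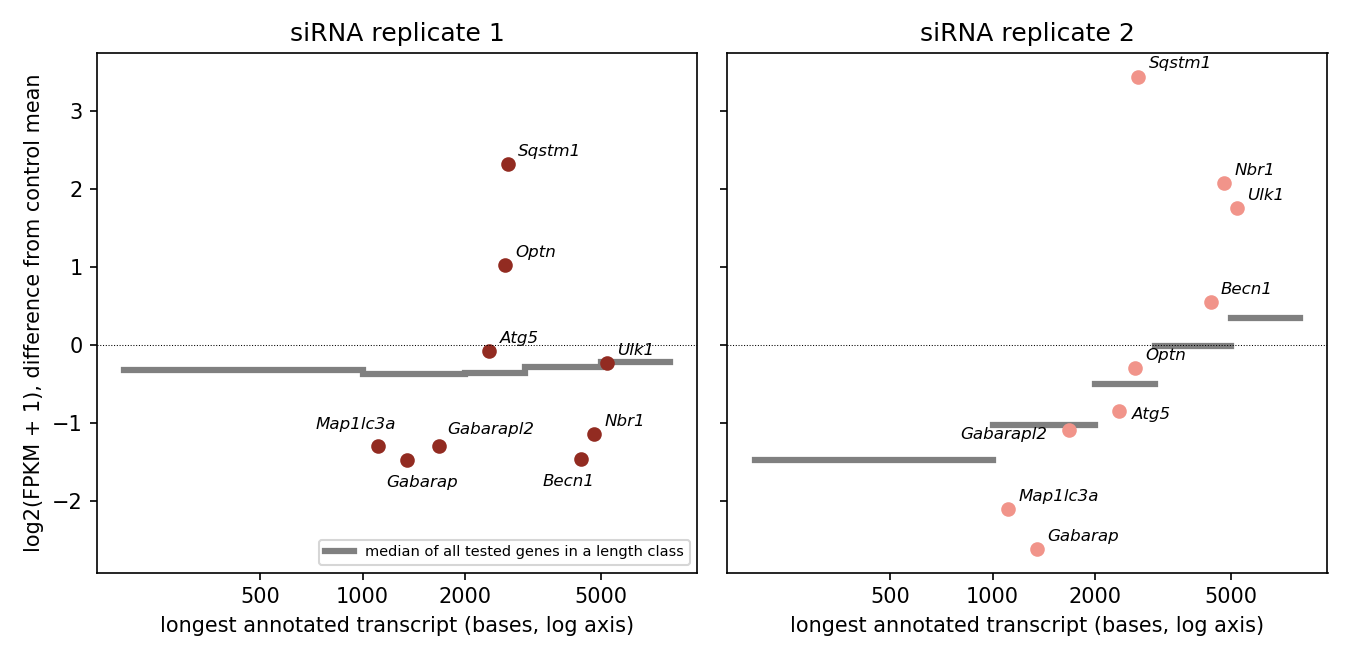
Difference of each autophagy gene from the control mean on the log2(FPKM + 1) scale against the length of its longest annotated transcript (log axis), for siRNA replicate 1 (left) and siRNA replicate 2 (right). Grey lines are medians of all tested genes in a length class, nearly flat at left and running from -1.48 to 0.34 at right. The longer autophagy genes lie higher at right. Sqstm1, which was selected for higher values with siRNA, stands above them.

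With both siRNA libraries, the wider pathway had shares close to those of all genes. The lists held 106 other genes of autophagy, lysosomes, the KEAP1-NRF2 pathway and kinases of receptors. Of these 85 were tested, and 0 passed in limma (6 had an unadjusted p under 0.05). In 25 (29.4%) the siRNA values both lay below the controls and in 9 (10.6%) above, beside 30.0% and 8.60% of all tested genes. The median log2 difference was -0.29, beside -0.39 for all tested genes. Of the 9 above, 4 (Clcn7, Mcoln1, Mitf and Stx17) passed the filter on low values only through the siRNA libraries and had to differ, as did 3 of the 25 below through the controls (Mlst8, Npc1 and Srxn1). Mcoln1, Mlst8, Npc1 and Srxn1 are named after their values were seen. In siRNA replicate 1 alone 48 (56.5%) lay below and 17 above, beside 48.3% and 20.6% of all tested genes. By step, again with both siRNA libraries, the initiation complex (4 tested) had 1 gene below and 0 above. The lipid kinase complexes (6 tested) had 2 and 1, phagophore lipid supply (7 tested) 2 and 1, and ATG8 conjugation (8 tested) 1 and 0. Other cargo receptors (11 tested) had 3 below and 0 above, fusion genes (11 tested) 3 and 1, and nutrient sensing (10 tested) 3 and 3. Lysosomal genes (16 tested) had 6 and 2. The list of KEAP1-NRF2 genes and kinases of receptors (12 tested) had 4 and 1. None of the genes named next passed in limma, and their adjusted p ran from 0.745 to 0.999.

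At the start of the pathway, Atg101, a subunit of the ULK1 complex, stood at 57.9 and 73.4 FPKM in controls and at 39.3 and 20.9 FPKM with siRNA. Uvrag, a partner of Beclin 1, stood at 34.2 and 26.0 FPKM against 18.4 and 15.0 FPKM. Tmem41b and Vmp1 encode lipid scramblases of the endoplasmic reticulum that are needed for autophagosome growth, and both were lower with siRNA. Tmem41b stood at 1034 and 883 FPKM against 375 and 36.3 FPKM, the highest control level of all autophagy genes named here, and Vmp1 at 171 and 116 FPKM against 55.4 and 41.8 FPKM. Atg9a, the scramblase of the seed vesicles, was higher, at 2.60 and 1.28 FPKM against 3.49 and 7.70 FPKM. Atg12, the ubiquitin-like partner of ATG5, overlapped between groups at 24.0 and 30.5 FPKM against 18.3 and 40.5 FPKM.

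Among other receptors, Bnip3l (NIX), which marks mitochondria for removal, stood at 91.8 and 142 FPKM in controls and at 48.6 and 7.87 FPKM with siRNA. Calcoco2, the mouse relative of NDP52, stood at 50.7 and 40.1 FPKM against 14.3 and 19.0 FPKM. Rtn3, a receptor for tubular endoplasmic reticulum, stood at 23.7 and 14.5 FPKM against 3.79 and 13.4 FPKM. For each, the siRNA values lay under the control values. At the fusion step, Stx17, the SNARE of the autophagosome, had a pattern like that of Sqstm1, at 0 and 0.246 FPKM in controls and at 2.46 and 15.0 FPKM with siRNA. Rab7, a GTPase of late endosomes, had 173 and 90.8 FPKM against 80.7 and 43.3 FPKM, and Vps11, a subunit of the HOPS tether, at 11.6 and 7.41 FPKM against 3.59 and 1.38 FPKM.

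Regulators and lysosomal genes lay on either side of the controls. Mtor, the kinase that restrains autophagy, stood at 11.8 and 10.2 FPKM in controls and at 0.727 and 7.46 FPKM with siRNA, and its activator Rheb at 135 and 131 FPKM against 99.3 and 57.7 FPKM. Transcription factors of the TFEB family that drive lysosomal genes were higher, with Mitf at 0.623 and 0.361 FPKM against 1.84 and 11.8 FPKM and Tfe3 at 2.84 and 3.10 FPKM against 4.98 and 17.0 FPKM, while Tfeb was listed at 0 in all 4 libraries. Akt1s1, an inhibitory subunit of mTORC1, stood at 0.461 and 2.07 FPKM against 3.05 and 8.95 FPKM. Lamp2, a lysosomal membrane protein, stood at 78.0 and 78.0 FPKM against 46.5 and 11.1 FPKM. Atp6v1b2, a proton pump subunit, had 25.1 and 24.8 FPKM against 14.9 and 6.61 FPKM. Clcn7, a lysosomal chloride-proton exchanger, was higher, at 0.174 and 0 FPKM against 11.0 and 3.71 FPKM.

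The KEAP1-NRF2 genes were included because p62 binds KEAP1 and because NRF2 can activate Sqstm1. Nfe2l2, which encodes NRF2, stood at 17.6 and 11.9 FPKM in controls and at 10.5 and 7.63 FPKM with siRNA. Gclm, a glutathione synthesis gene and NRF2 target, stood at 52.4 and 38.3 FPKM against 15.9 and 15.6 FPKM. Slc7a11, a cystine transporter gene and NRF2 target named after its value was seen, was the 1 gene of the list above both controls (log2 difference 1.06).

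**Figure D4:**
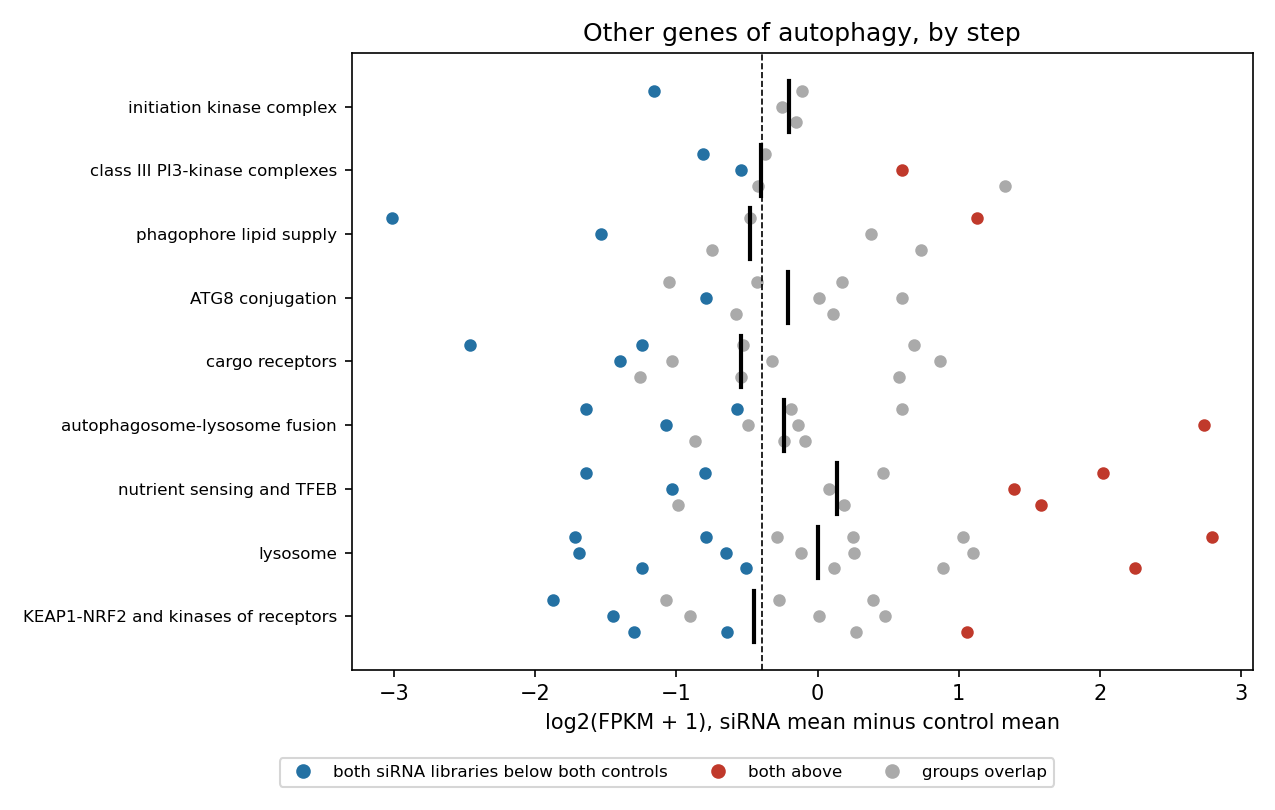
Difference between the siRNA and control means on the log2(FPKM + 1) scale for other tested genes, 1 point per gene. Genes are grouped by step of autophagy, with lysosomal genes and the KEAP1-NRF2 and receptor kinase list added. Black bars are list medians, the dashed line is the median of all tested genes (-0.39), and colours show whether both siRNA libraries lay below (blue) or above (red) both controls.

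The genes most like Sqstm1 over the 4 libraries were ranked by Euclidean distance in log2(FPKM + 1), which describes 4 values and tests nothing. The ranking left out tested genes with predicted-gene, pseudogene, microRNA, snoRNA or clone-type names. Among the 9620 that remained the nearest were Smyd5 (distance 0.39), Stab1 (0.59), Purg (0.78), Zbp1 (0.78) and Id4 (0.92). Smyd5, a SET-domain protein, stood at 0.594 and 0 FPKM in controls and at 3.94 and 12.8 FPKM after siRNA. For Zbp1, which binds Z-form nucleic acids, the level stood at 0.355 and 0 FPKM against 7.35 and 17.0 FPKM. A pattern like that of Sqstm1 was also counted over all 47445 gene identifiers but the failed ones, with limits set after its values were seen. Sqstm1 included, 11 genes lay under 0.5 FPKM in both controls and at 4 FPKM or more in both siRNA libraries. The reverse was seen for 40. Of the 9620 ranked genes, 4 showed the pattern and 17 the reverse. These data are bulk measurements, in which fewer contributing cells and less RNA per cell cannot be told apart.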

How the data were processed

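Polyadenylated RNA of 2 control and 2 siRNA libraries was amplified full-length from an oligo(dT) primer and read from both ends, per the labels' protocols. The authors deposited 1 table of FPKM values with bounds per library, per the file headers. Cufflinks 2.2.1, Cuffdiff 2.2.1, STAR 2.7.3a, Trim Galore 0.6.5, SAMtools 1.7 and build mm10 are in the submitters' processing notes, with no annotation release given in the sources used here. Rows sharing 1 of 47445 gene identifiers were summed. Fragments behind a value were inferred from the authors' bounds: FPKM was divided by its error (the gap to the upper bound over 2) and squared. For genes with 1 transcript and up to 30 fragments, 68.2% to 77.2% were whole within 0.05. Depth was taken instead from genes with 1 transcript and more fragments, 523 to 746 of them per library. For genes with several transcripts the bounds also hold isoform uncertainty, so no fragments are given for them. Depth covers counting error only.

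Genes with at least 1 FPKM in 2 libraries (12390, without 2 whose estimate had failed) were compared on log2(FPKM + 1) by limma 3.58.1 under R 4.3.3, with an abundance trend, two-sided, with Benjamini-Hochberg adjustment over all of them and a threshold of 0.05. An exact permutation test of 2 against 2 cannot go below 0.333. Gene models, overlaps and lengths came from GENCODE M21, which matched 99.1% of identifiers, and copies from BLAST. Alternatives were another pseudocount, 2 filters, 3 scalings, no trend, and leaving out each library. Of each list, up to 3 genes per direction with groups apart and a mean of 5 FPKM in the higher group are named, by size of difference, else the most abundant one; 1 gene this gives is not reported here. Genes and lists were chosen with earlier results of these data known.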

Additional observations from a re-analysis of the deposited data

How the results depend on the processing

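With 2 libraries a group, 1 of which stood apart, only large differences could pass: in limma 0 genes passed with all 4 libraries under any of the 7 alternatives that keep them. Where a library is left out, the lone one is assumed to vary like the other group. Gabarap, Map1lc3a and Gabarapl2 kept their direction, and their groups stayed apart, under each of 11 alternatives. Only TPM, quantile normalization and median-of-ratios scaling could have changed this, because the other alternatives keep the order of a gene's values. The direction of Sqstm1 is fixed by its selection, and the filter at 5 FPKM leaves it out; its log2 difference was 5.22 with a pseudocount of 0.1 and 3.69 with TPM. Leaving out each library gave -1.15 (without siRNA replicate 2) to 2.07 for Nbr1, -1.47 to 0.55 (without siRNA replicate 1) for Becn1, and -0.24 (without siRNA replicate 2) to 1.75 for Ulk1, which was -0.14 without control replicate 2. The cause of these turns was not tested. No paired analysis was possible because the labels carry no replicate numbers, and those used here follow accession order.

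The median of the 7 tested autophagy genes was -0.05 with TPM, -0.10 with quantile normalization and -0.14 with median-of-ratios scaling. Leaving out each library in turn gave medians of -1.30 to -0.19, 0 to 1 genes past the threshold, 3 to 5 below the controls and 0 to 3 above.

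Over all genes the median was -0.07 with no filter, -0.08 with TPM, 0.01 with quantile normalization and -0.11 with median-of-ratios scaling. Genes below both controls numbered 2322 and 2470 with the last 2 scalings. Genes above numbered 1988 of 22517 with no filter (8.83%) and 530 of 7622 at 5 FPKM (6.95%), beside 8.60% with the main filter. With the 3 scalings they numbered 1630, 2046 and 1995. Leaving out each library gave 0 to 1477 genes past the threshold, 5186 to 6262 below, 2033 to 3963 above and medians of -0.57 to -0.30.

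In the wider lists, genes below numbered 13 with quantile normalization (15.3%, beside 18.7% of all genes). With median-of-ratios scaling they numbered 16 (18.8%, beside 19.9%). Genes above numbered 0 of the 51 tested at 5 FPKM, beside 6.95% of all genes there. They numbered 14 with TPM (16.5%, beside 13.2%) and 15 with quantile normalization (17.6%, beside 16.5%). The median was 0.05 with TPM. Leaving out each library gave 0 to 5 past the threshold, 31 to 48 below, 16 to 34 above and medians of -0.49 to -0.04. With fewer libraries in a group, fewer values have to lie apart, so these counts are larger by construction.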
